A study of Oryza sativa with 16 samples.

Results

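Ethylene response factors (ERFs) are plant transcription factors with a single AP2 DNA-binding domain, and many of them bind the GCC box in promoters. The family carries responses to ethylene, wounding, submergence and osmotic stress. Some members activate their targets and others repress them. The DREB group, which binds a dehydration-responsive element, is a related branch of the AP2/ERF superfamily and was kept apart here. The 8 ERF genes described below were chosen by family, as AP2/ERF genes outside the DREB group among 30385 annotated genes. The list was drawn up with expression results of these same libraries in view, so the values of its members describe them and were not used as a test. Neither the files nor the reference table used here pair the identifiers with gene names or domains. The genes are therefore called by their identifiers, and their place in the family was not checked against sequence.

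The expression of these genes was measured by RNA-seq in the rice (Oryza sativa Indica) cultivar Pusa Basmati 1. Seedlings were h4.v KO grown with salt, WT grown with salt, h4.v KO and WT, where salt was 120 mM NaCl in the growth medium. Leaves came from mature OE-H4.V, OE-H4, OE-H4.Vs and WT plants grown without salt. Each of the 8 groups had 2 libraries, called duplicates by the submitters, and the p-values below measure the spread between such pairs, which may be technical in part. The h4.v KO plants lost H4.V, the Oryza-specific variant of histone H4, through Cas9 editing, and were free of the transgene. The study obtained 3 types of mutation and took 1 of them for analysis. The OE lines express FLAG-tagged H4.V, canonical H4, or H4.Vs (its N-terminal part from H4.V, its C-terminal part from H4) under a maize Ubiquitin promoter. The labels give the seedlings as 20 days old, whereas the methods of the study give a younger age for seedling RNA.

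The values are FPKM (fragments scaled to transcript length and to mapped fragments), which Cufflinks gave for each library on its own and for each assembled or annotated locus. A gene's value is a sum over the loci that lie at least 50% in it, each locus counting with its FPKM times the share of the gene that it covers. Where the mean over a tissue reached 1 FPKM, genes were compared as log2(FPKM + 1) with limma, and a gene was called when its Benjamini-Hochberg adjusted p was under 0.05 and its absolute log2 fold change was over 1.5. Relative depth, derived from the width of Cufflinks' intervals, was between 0.736 and 1.203 in seedlings and between 0.545 and 0.857 in leaves, with WT seedling replicate 1 at 1. In 5 leaf libraries, WT replicate 1, OE-H4.V replicate 2, OE-H4 replicate 2 and both OE-H4.Vs replicates, 11.5% to 20.6% of the FPKM lay in loci under 300 bp, against 0.8% to 7.54% in the other 11 libraries. H4.V itself, matched by position to Os05g0462900, was at 3369 and 3162 FPKM in OE-H4.V leaves and was listed at 0 in the other 14 libraries, so its values check the OE-H4.V label and say nothing of the h4.v KO label. The 3 green leaf markers summed to 2031 to 2426 FPKM in WT leaves. The 3 root markers summed to 37.0 to 37.7 FPKM in WT seedlings, and to at most 2.24 FPKM in any leaf library.

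WT seedlings held some of the ERF genes among the most abundant transcripts of the tissue. Os09g0434500 (chromosome 9, 15959434 to 15962646 on IRGSP1.0) averaged 430 ± 3.52 FPKM in WT seedlings (SD, n = 2), above 99.5% of the 13936 genes compared there. Os08g0474000 (chromosome 8, 23353856 to 23354936) averaged 294 ± 28.2 FPKM, Os01g0797600 (chromosome 1, 33766984 to 33768044) 135 ± 3.59 FPKM and Os02g0782700 (chromosome 2, 33199818 to 33202681) 104 ± 9.66 FPKM. Os02g0654700 (chromosome 2, 26422187 to 26423485) was intermediate at 22.5 ± 1.01 FPKM, and Os01g0752500 (chromosome 1, 31567786 to 31568709) was low at 3.13 ± 0.714 FPKM. The median gene was at 9.24 FPKM. Os03g0860100 (chromosome 3, 36301491 to 36302407) and Os04g0546800 (chromosome 4, 27371324 to 27372855) stayed under 1 FPKM in WT seedlings. Of the 8 genes, 7 passed the filter in seedlings and 6 in leaves. Os04g0546800 passed in seedlings through the h4.v KO libraries alone, and Os03g0860100 passed in neither tissue.

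Os08g0474000 was the ERF gene with the widest range. It was at 5.88 and 6.79 FPKM in h4.v KO seedlings, against 314 and 274 FPKM in WT seedlings. Both h4.v KO libraries thus lay far below both WT libraries, at 2.15% of the WT mean. On the log2(FPKM + 1) scale it fell by 5.33 (SE 0.12) in h4.v KO and was called. With salt it was listed at 0 in all 4 seedling libraries of both genotypes, and it was listed at 0 in all 8 leaf libraries, so no fold is given for these groups. Cufflinks lists 0 also where it did not assemble the locus. In bulk tissue, fewer cells of a type and less RNA per cell cannot be told apart. The locus behind the value differed in its ends as well as in its level. It ran 73 and 53 bp past the annotated right end in h4.v KO seedlings, against 291 and 446 bp in WT seedlings. Its values rest on about 149 and 173 fragments in h4.v KO and on about 1896 and 3174 fragments in WT, as derived from Cufflinks' intervals. The WT loci lay 0.780 and 0.681 of their length in the gene, so a rule that required 80% of a locus to lie in it left WT without a value and turned the difference to 2.87 by its construction.

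**Figure D1:**
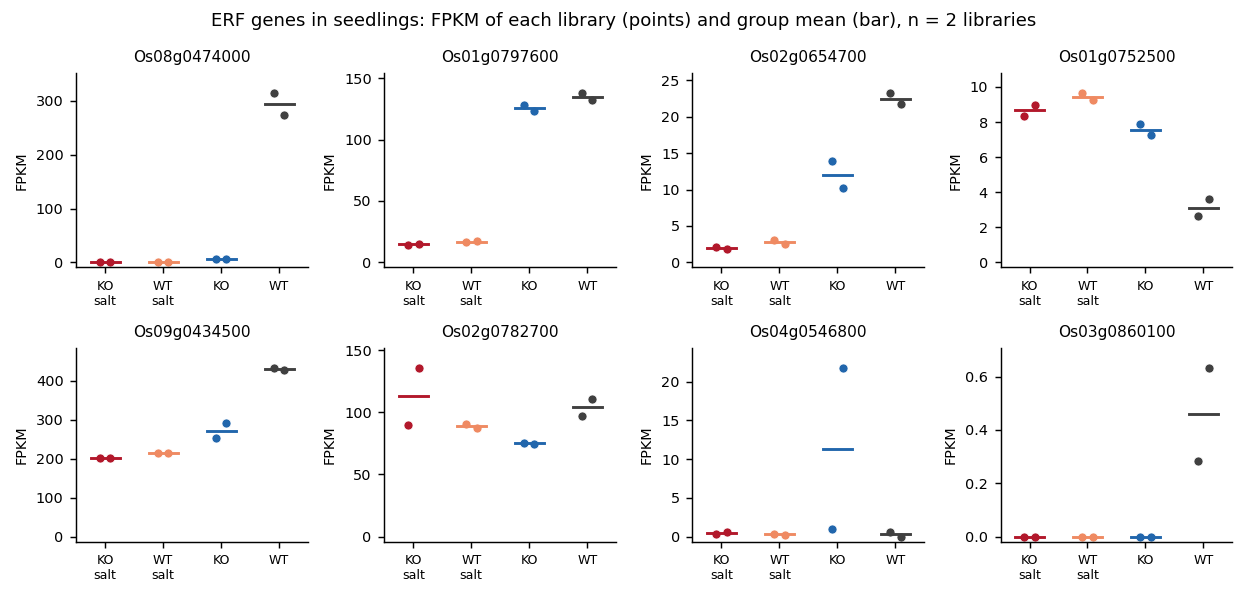
FPKM of the 8 ERF genes in seedlings, 1 panel per gene with its own axis starting at 0. Points are single libraries and bars are means of 2 libraries in h4.v KO salt, WT salt, h4.v KO and WT; Os08g0474000 is near 0 in every group but WT, and Os01g0797600 is low in both salt groups.

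Os01g0797600 separated the salt groups and hardly separated the genotypes. It was at 14.1 and 15.3 FPKM in h4.v KO salt seedlings, against 128 and 123 FPKM in h4.v KO seedlings. In WT salt seedlings it was at 16.2 and 17.1 FPKM, against 138 and 133 FPKM in WT seedlings. It fell with salt in both genotypes, by 3.01 (SE 0.07) in h4.v KO and by 2.95 (SE 0.07) in WT on the log2 scale. Without salt h4.v KO differed from WT by -0.10 (SE 0.07), which was not called, and its salt effect differed between the genotypes by -0.06 (SE 0.11). Its assembled locus kept nearly the same ends in all 16 libraries, with the start between 33 bp before and 22 bp after the annotated one and the end between 2 and 32 bp after it.

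Os02g0654700 took the same direction with salt and an intermediate level in h4.v KO. It was at 2.12 and 1.87 FPKM in h4.v KO salt seedlings, against 14.0 and 10.2 FPKM in h4.v KO seedlings. It was at 3.04 and 2.53 FPKM in WT salt seedlings, against 23.2 and 21.8 FPKM in WT seedlings. With salt it fell by 2.11 in h4.v KO and fell by 2.64 in WT on the log2 scale (SE 0.16 each), and both were called. In h4.v KO without salt the mean was 53.7% of that in WT, a log2 difference of -0.86 (SE 0.16) that did not pass the fold cut-off, although the libraries did not overlap. These differences depended on the ends of the locus. In h4.v KO seedling replicate 2 and both WT seedling libraries the locus began 609, 301 and 380 bp before the annotated start, and under the 80% rule, which drops some of these loci, the differences were -0.35 for h4.v KO against WT, -0.37 for salt in h4.v KO and -0.38 for salt in WT (SE 1.83 each).

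**Figure D2:**
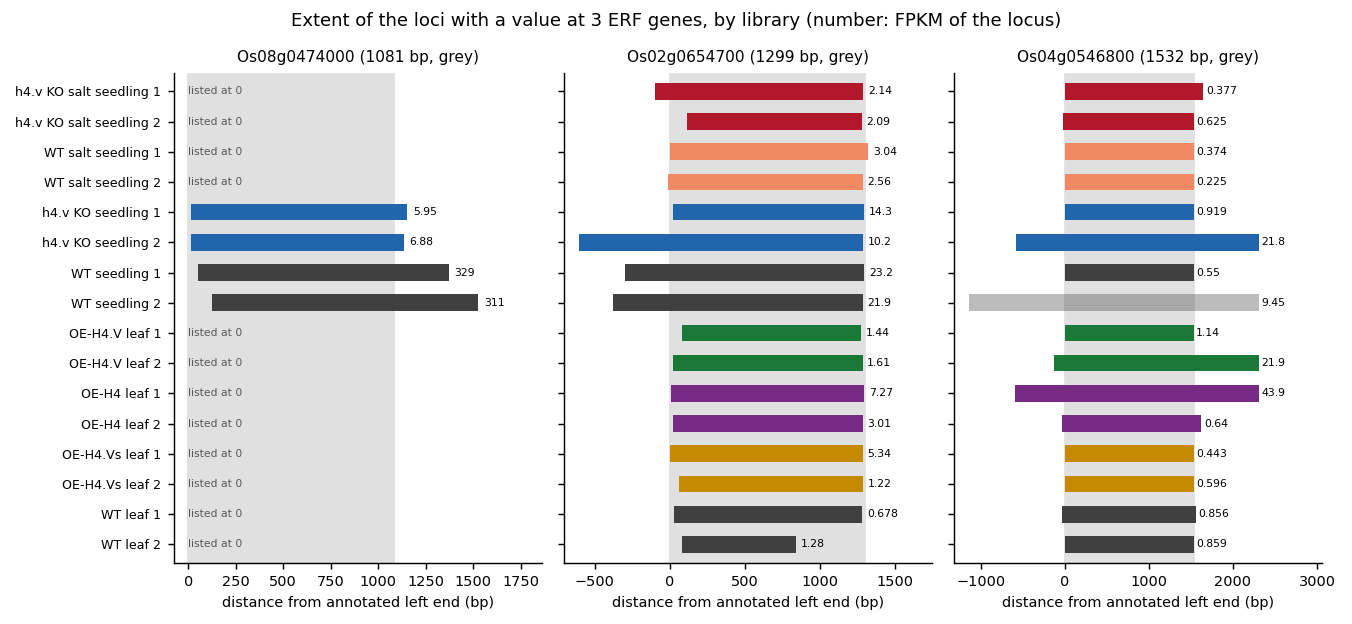
Extent of the loci with a value at Os08g0474000, Os02g0654700 and Os04g0546800 in each library, as distance in bp from the annotated left end of the gene (grey), with the FPKM of the locus as deposited beside its bar. The pale bar was not counted because under 50% of it lies in the gene; long loci at Os04g0546800 carry the high values.

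Os01g0752500 ran the other way. It was at 7.88 and 7.26 FPKM in h4.v KO seedlings, against 2.62 and 3.63 FPKM in WT seedlings. In WT salt seedlings it was at 9.63 and 9.28 FPKM, 3.03 times the mean of WT seedlings. In h4.v KO salt seedlings it was at 8.35 and 8.98 FPKM, 1.14 times the mean of h4.v KO seedlings. All 3 groups lay above both WT libraries grown without salt. On the log2 scale the differences were 1.07 for h4.v KO against WT, 1.35 for WT salt against WT and 0.17 for h4.v KO salt against h4.v KO (SE 0.14 each), none of them past the fold cut-off. The difference for WT salt against WT came to 1.53 without WT seedling replicate 2 and to 1.18 without WT seedling replicate 1. Under the 80% rule the difference for h4.v KO against WT turned to -0.51, since the locus of h4.v KO replicate 1 lay 0.795 of its length in the gene and was dropped. The salt effect in h4.v KO minus that in WT was -1.18 (SE 0.20). Under the 80% rule it turned to 0.40 (SE 1.32), and the salt difference in h4.v KO came to 1.75 (SE 0.93), which was not called. The loci behind these values held about 51.5 to 182 fragments in seedlings, and in 3 of the 4 salt libraries the annotated locus added about 1.1 FPKM to the assembled one.

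Os09g0434500, the most abundant of the 8 genes in WT seedlings, had lower values in every library of the other 3 seedling groups, though no difference was called. It was at 252 and 290 FPKM in h4.v KO seedlings, against 433 and 428 FPKM in WT seedlings. In h4.v KO salt seedlings it was at 201 and 202 FPKM, and in WT salt seedlings it was at 215 FPKM in both libraries. The log2 differences were -0.67 for h4.v KO against WT, -0.999 for WT salt against WT and -0.42 for h4.v KO salt against h4.v KO (SE 0.08 each), all of them short of the fold cut-off. Os02g0782700 varied least. It was at 75.1 and 74.9 FPKM in h4.v KO seedlings, against 97.3 and 111 FPKM in WT seedlings. With salt it was at 90.1 and 136 FPKM in h4.v KO and at 90.7 and 87.1 FPKM in WT, and no difference of it was called. The higher library in h4.v KO salt and the higher one in WT came from loci that ended 249 and 311 bp before the annotated end.

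The other pair gave little that can be compared. Os03g0860100 was at 0.284 and 0.633 FPKM in WT seedlings, on about 4.7 and 15.1 fragments, and was listed at 0 in the other 14 libraries. Os04g0546800 was at 0.919 and 21.8 FPKM in h4.v KO seedlings and at 0.55 and 0 FPKM in WT seedlings. With salt it was at 0.377 and 0.625 FPKM in h4.v KO and at 0.374 and 0.225 FPKM in WT. Its leaf values were 1.14 and 21.9 FPKM in OE-H4.V, 43.9 and 0.64 FPKM in OE-H4, 0.443 and 0.596 FPKM in OE-H4.Vs and 0.856 and 0.859 FPKM in WT. Each of the 3 high values came from a locus that ran on to the end of the neighbouring gene Os04g0546900, 774 bp past the end of Os04g0546800. In WT seedling replicate 2 a locus of this kind, at 9.45 FPKM, lay under 50% in the gene and was not counted. The tables give no strand, so reads of the 2 overlapping genes cannot be told apart, and the duplicates of this gene are not comparable.

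Across the genes tested, 4.22% were called lower and 1.58% higher in h4.v KO than in WT seedlings, and of the 7 ERF genes tested 1 was called lower and 0 higher. Without h4.v KO replicate 1, Os04g0546800 was called too, on the 21.8 FPKM of the run-on locus in replicate 2. In WT salt against WT seedlings, 8.09% of all genes were called lower and 3.29% higher, and 3 ERF genes were called lower (Os08g0474000, Os01g0797600 and Os02g0654700) and 0 higher. In h4.v KO salt against h4.v KO seedlings, 5.91% of all genes were called lower and 2.51% higher, and the same 3 ERF genes were called lower and 0 higher. The first comparison shares its WT libraries with the salt comparison in WT and its h4.v KO libraries with that in h4.v KO. Between h4.v KO salt and WT salt seedlings, 0.172% of all genes were called lower and 0.28% higher, and 0 ERF genes in either direction by limma. This count was also 0 at an unadjusted p under 0.05 without the fold cut-off. The ERF genes' median log2 difference was -0.46 in h4.v KO against WT (all genes 0.13), -0.999 in WT salt against WT (0.06), -2.11 in h4.v KO salt against h4.v KO (-0.11) and -0.09 in h4.v KO salt against WT salt (-0.05). These medians include Os08g0474000 with its listed 0 values. They also include Os04g0546800, which passed the filter through the h4.v KO libraries alone and whose duplicates are not comparable. Its difference was 2.41 in h4.v KO against WT and -2.14 in h4.v KO salt against h4.v KO (SE 1.05 each). Since the genes were chosen with these libraries in view, the counts and medians are a description. For the salt effect in h4.v KO against that in WT, 2.62% of all genes were called lower and 4.17% higher, and of the ERF genes 0 and 1. That 1 gene is Os08g0474000, which was listed at 0 in both salt groups, so its value of 5.33 restates the difference without salt. Without h4.v KO replicate 1, Os04g0546800 was called for this contrast and for h4.v KO salt against h4.v KO as well, on the same locus. A scaling by the median ratio of all genes shifted the h4.v KO against WT differences of all genes by -0.12 (median), those of h4.v KO salt against h4.v KO by 0.10 and those of the salt effects' difference by 0.18.

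**Figure D3:**
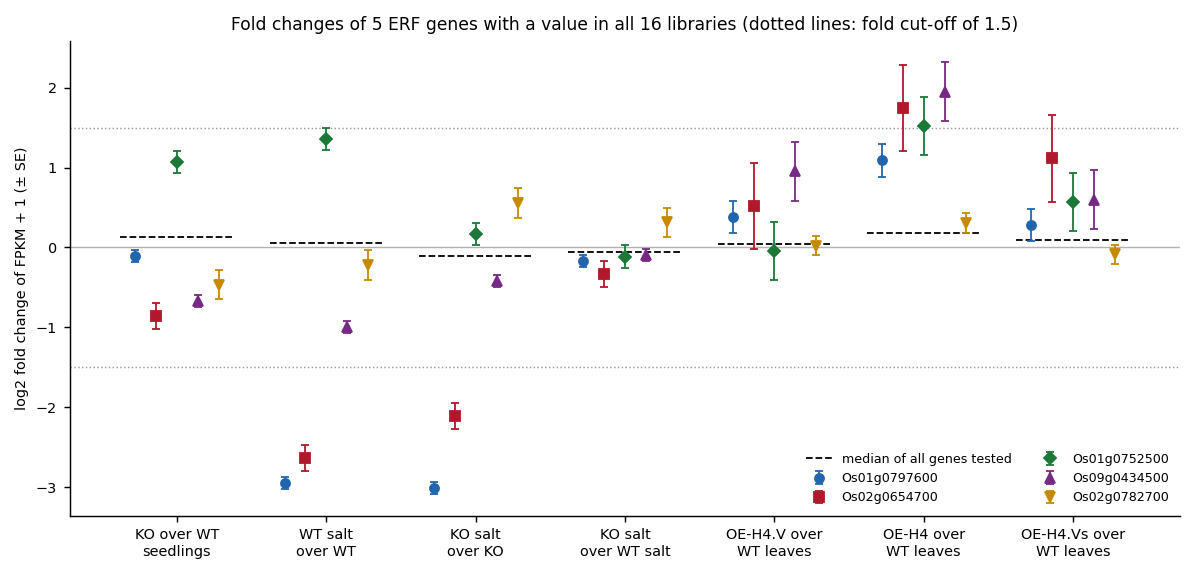
Log2 fold changes of FPKM + 1 (± SE from limma) of the 5 ERF genes with a value in all 16 libraries, in 4 seedling and 3 leaf comparisons, with 2 libraries per group. Dashes mark the median of all genes tested and dotted lines the fold cut-off of 1.5; Os01g0797600 and Os02g0654700 lie near -2 to -3 in both salt comparisons.

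The salt libraries could be told apart by other genes too. Of 5 genes listed for salt and water deficit, 2 were called higher in WT salt than in WT seedlings and 1 lower. Of all genes tested, 3.29% were called higher and 8.09% lower. The listed gene called lower, Os01g0884300, was at 35.7 and 34.8 FPKM in WT salt seedlings, against 214 and 108 FPKM in WT seedlings. In h4.v KO salt against h4.v KO seedlings, 3 were called higher and 0 lower, against 2.51% and 5.91% of all genes. Os01g0884300 had a log2 difference of -1.05 (SE 0.29) there, which was not called. Os05g0542500 was at 34.6 and 38.2 FPKM in h4.v KO salt seedlings, against 2.95 and 3.33 FPKM in h4.v KO seedlings, and at 55.3 and 55.6 FPKM in WT salt seedlings, against 0.80 and 0.64 FPKM in WT seedlings. Of 3 green leaf markers, 1 (Os01g0600900) was called lower with salt in each genotype and the other two were not called. Their summed FPKM was 642 to 2173 in h4.v KO salt, 751 to 2446 in WT salt, 3623 to 3686 in h4.v KO and 2231 to 2385 in WT seedlings, so the sums of WT salt and WT overlapped. The 3 root markers summed to 54.8 to 55.8 FPKM in h4.v KO salt, 64.9 to 69.8 FPKM in WT salt, 35.8 to 36.1 FPKM in h4.v KO and 37.0 to 37.7 FPKM in WT seedlings. One of them, Os06g0701700, was called higher in h4.v KO than in WT seedlings, with a log2 difference of 1.74 (SE 0.46), and passed the filter through the h4.v KO libraries alone. The part of these markers in the ERF values was not tested.

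In leaves each of the 6 ERF genes that passed the filter had its highest mean in OE-H4, and Os08g0474000 and Os03g0860100 were listed at 0. At Os04g0546800 the duplicates behind that mean were at 43.9 and 0.64 FPKM and are not comparable. Os09g0434500 was at 65.5 and 54.7 FPKM in OE-H4.V, 104 and 139 FPKM in OE-H4 and 31.7 and 68.8 FPKM in OE-H4.Vs leaves, against 25.6 and 36.3 FPKM in WT leaves. Both OE-H4 and both OE-H4.V libraries lay above both WT libraries, while the OE-H4.Vs libraries overlapped WT. Its log2 difference from WT was 0.95 in OE-H4.V, 1.95 in OE-H4 and 0.60 in OE-H4.Vs (SE 0.37 each), and the rise in OE-H4 was called. Os01g0752500 was at 1.78 and 0.816 FPKM in OE-H4.V, 7.35 and 4.31 FPKM in OE-H4 and 3.46 and 1.63 FPKM in OE-H4.Vs leaves, against 1.48 and 1.16 FPKM in WT leaves. It was called higher in OE-H4, with a log2 difference of 1.52 (SE 0.36), just past the cut-off. Its OE-H4.Vs values rest on 2 short loci in replicate 1 and on 1 locus of 308 bp in replicate 2.

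Os02g0654700 was at 1.32 and 1.57 FPKM in OE-H4.V, 7.23 and 2.93 FPKM in OE-H4 and 5.30 and 1.15 FPKM in OE-H4.Vs leaves, against 0.656 and 0.749 FPKM in WT leaves. All 6 OE libraries lay above both WT libraries, but the duplicates of OE-H4 and OE-H4.Vs lay far apart and no difference was called, that of OE-H4 being 1.74 (SE 0.54). Os01g0797600 was at 6.39 and 5.15 FPKM in OE-H4.V, 10.6 and 9.47 FPKM in OE-H4 and 4.41 and 6.33 FPKM in OE-H4.Vs leaves, against 4.45 and 3.93 FPKM in WT leaves. Its duplicates lay closer together, and its log2 difference from WT in OE-H4 was 1.09 (SE 0.20), short of the fold cut-off. Os02g0782700 stayed between 29.6 and 41.0 FPKM over the 8 leaf libraries, and its largest log2 difference from WT leaves was 0.30 (SE 0.12), in OE-H4.

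**Figure D4:**
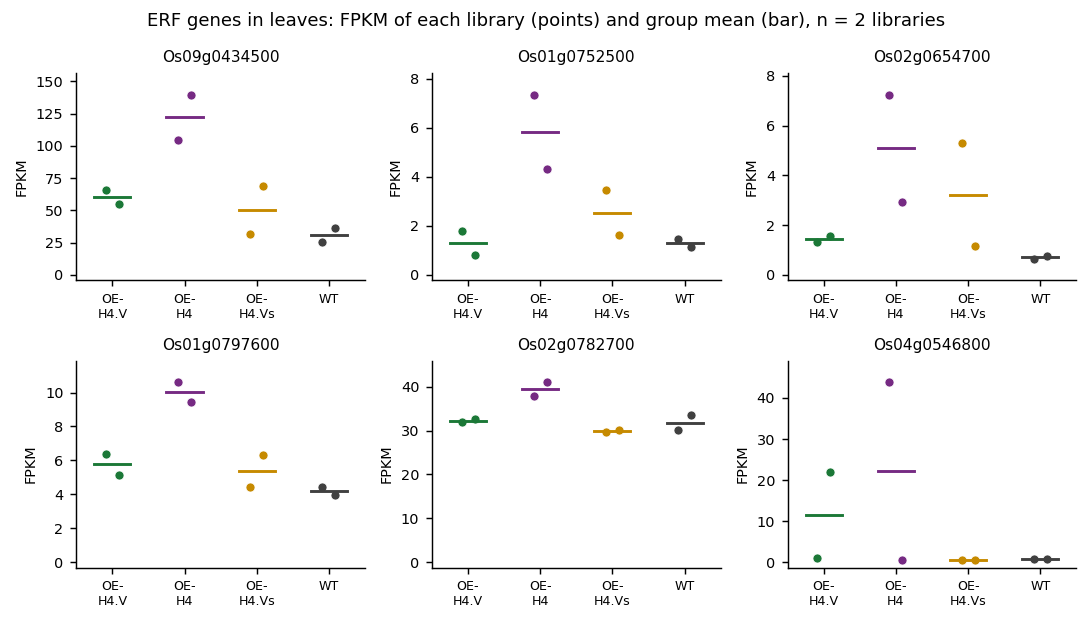
FPKM of the 6 ERF genes that passed the filter in leaves, 1 panel per gene with its own axis starting at 0. Points are single libraries and bars are means of 2 libraries in OE-H4.V, OE-H4, OE-H4.Vs and WT; OE-H4 has the highest mean in every panel, and at Os04g0546800 single libraries set the means.

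The 3 OE comparisons share the WT leaf libraries. In OE-H4.V leaves 1.11% of the 11294 genes tested were called lower and 1.99% higher, and 0 of the 6 ERF genes tested in either direction by limma, with 1 at an unadjusted p under 0.05 and short of the fold cut-off. In OE-H4 leaves 2.76% were called lower and 3.97% higher, and 0 and 2 ERF genes. In OE-H4.Vs leaves 1.13% were called lower and 2.39% higher, and 0 ERF genes in either direction by limma, with 0 at an unadjusted p under 0.05. With FPKM summed over loci without weighting, 1 was called in OE-H4.Vs, where Os01g0752500 came to 1.64. The median log2 difference of the ERF genes was 0.45 in OE-H4.V (all genes 0.04), 1.63 in OE-H4 (0.18) and 0.42 in OE-H4.Vs (0.09). A scaling by the median ratio of all genes shifted the OE-H4 differences of all genes by -0.18 (median). Under it 1 ERF gene was called in OE-H4, since Os01g0752500 came to 1.38. The number called in OE-H4 was 0 without WT leaf replicate 1, without WT leaf replicate 2 or without OE-H4 leaf replicate 1, and 1 without OE-H4 leaf replicate 2. Of the 3 green leaf markers, 2 were tested in leaves and moved with this group. Both were called lower in OE-H4 (Os01g0600900 by limma with a Benjamini-Hochberg adjusted p of 0.0091, Os12g0274700 with 0.0089). The untested Os01g0869800 did not follow them. Its OE-H4 duplicates gave 0 and 59.9 FPKM, on either side of the WT pair (21.6 and 10.5 FPKM). The OE-H4.V duplicates gave 48.0 and 66.2 FPKM, and those of OE-H4.Vs 0 and 41.6 FPKM. Os01g0869800 was the lowest of the 3 in every leaf library, so the sums mostly follow the other 2. The 3 markers summed to 902 to 1595 FPKM in OE-H4.V, 258 to 396 FPKM in OE-H4 and 783 to 1319 FPKM in OE-H4.Vs leaves, against 2031 to 2426 FPKM in WT leaves, and their part in the ERF values was not tested.

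Levels in WT leaves and WT seedlings are given side by side only, since the plants differed in age and growth. Os09g0434500 averaged 31.0 ± 7.57 FPKM in WT leaves, against 430 ± 3.52 FPKM in WT seedlings (SD, n = 2 each). Os01g0797600 averaged 4.19 ± 0.363 FPKM in WT leaves, against 135 ± 3.59 FPKM in WT seedlings. On the log2(FPKM + 1) scale the median difference of WT leaves minus WT seedlings was -2.73 over the 6 ERF genes tested in both tissues, and -0.23 over the 10060 genes tested in both. The 6 include Os04g0546800 at 0.58, which was under 1 FPKM in all of these WT libraries.

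Other genes of the ethylene pathway were read from a list of 20 identifiers written down from general knowledge, for ethylene synthesis, receptors and signalling, which the files do not annotate. Ethylene is made from S-adenosylmethionine by ACC synthases and ACC oxidases, and its receptors hold back a signal that otherwise reaches ERF genes. Of the 12 listed genes tested in seedlings, 4 were called lower and 1 higher in h4.v KO than in WT. Of all genes tested, 4.22% were called lower and 1.58% higher. Of the 12, 3 reached the filter only because of groups in which they were high, Os03g0727600 through WT, Os09g0451000 through h4.v KO and Os04g0578000 through WT together with h4.v KO, so that differences between seedling groups were built into their selection. Of the other 9, 3 were called lower and 0 higher in h4.v KO than in WT. Os09g0451400 was at 2.51 and 2.70 FPKM in h4.v KO seedlings, against 29.3 and 31.5 FPKM in WT seedlings, a log2 difference of -3.12 (SE 0.10, limma with Benjamini-Hochberg adjusted p = 2.02e-05). Os09g0451000 rose, with 5.65 and 4.84 FPKM in h4.v KO seedlings, against 0.358 and 0.502 FPKM in WT seedlings. The log2 difference was -2.40 for Os03g0727600, -1.96 for Os07g0685700 and -1.51 for Os02g0200900. In WT salt against WT seedlings 7 of the 12 were called lower and 0 higher (all genes 8.09% and 3.29%). In h4.v KO salt against h4.v KO seedlings 2 were called lower and 0 higher (all genes 5.91% and 2.51%). The 7 were Os09g0451400, Os03g0727600, Os07g0685700, Os02g0200900, Os02g0527600, Os06g0605900 and Os04g0578000, and the 2 were Os09g0451000 and Os02g0527600. Of the 9 genes that did not depend on 1 group to pass the filter, 5 were called lower in WT salt and 1 in h4.v KO salt. Between h4.v KO salt and WT salt seedlings 0 of the 12 were called by limma (all genes 0.452%), with 4 at an unadjusted p under 0.05. In leaves 0 of 7 were called in each OE line (all genes 3.1% in OE-H4.V, 6.73% in OE-H4 and 3.52% in OE-H4.Vs). At an unadjusted p under 0.05 there were 0 in OE-H4.V, 2 in OE-H4 and 2 in OE-H4.Vs. Without h4.v KO replicate 1, 3 of the list were called in h4.v KO against WT and 1 in h4.v KO salt against h4.v KO. The median log2 difference of the 12 genes was -0.80 in h4.v KO against WT (all genes 0.13). It was -2.04 in WT salt against WT (0.06) and -1.25 in h4.v KO salt against h4.v KO (-0.11).

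Of 7 further ERF identifiers listed in the same way, 6 were tested in seedlings. In h4.v KO against WT seedlings 0 of the 6 were called by limma (all genes 4.22% lower and 1.58% higher). Of the 6, 4 were at an unadjusted p under 0.05 and short of the fold cut-off. In WT salt against WT seedlings 3 were called lower (8.09% of all genes). In h4.v KO salt against h4.v KO seedlings 4 were called lower (5.91% of all genes). Os04g0610400 was at 6.2 and 6.0 FPKM in h4.v KO salt seedlings, against 86.5 and 85.9 FPKM in h4.v KO seedlings. It was at 5.37 and 5.16 FPKM in WT salt seedlings, against 129 and 122 FPKM in WT seedlings. Its log2 difference with salt was -3.62 in h4.v KO and -4.34 in WT (SE 0.07 each). Os09g0286600 also fell with salt, with -3.05 in h4.v KO and -2.12 in WT, as did Os09g0287000, with -3.30 in h4.v KO and -1.83 in WT. In leaves Os09g0287000 was at 6.3 and 4.6 FPKM in OE-H4.V, 4.54 and 3.65 FPKM in OE-H4 and 6.58 and 8.01 FPKM in OE-H4.Vs, against 30.8 and 35.0 FPKM in WT. It was called lower in all 3 lines, which share these WT libraries, as 1 of 5 further ERF genes tested in leaves. Of all genes, 1.11% were called lower in OE-H4.V, 2.76% in OE-H4 and 1.13% in OE-H4.Vs.

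In the DREB group 2 of 4 listed genes were tested. Both were called lower in h4.v KO than in WT seedlings (4.22% of all genes) and in WT salt than in WT seedlings (8.09%). Os09g0522000 and Os06g0127100 share a locus with another gene and were not tested. Their WT seedling duplicates lay far apart, at 352 and 0 FPKM for Os09g0522000 and at 144 and 0 FPKM for Os06g0127100. Os09g0522200 was at 6.23 and 5.06 FPKM in h4.v KO seedlings, against 95.0 and 86.8 FPKM in WT seedlings. It was at 0.0409 and 0.233 FPKM in h4.v KO salt and 0.0617 and 0.177 FPKM in WT salt seedlings. Os01g0165000 was at 4.99 and 3.91 FPKM in h4.v KO seedlings, against 14.3 and 14.5 FPKM in WT seedlings, a difference of -1.505 (SE 0.22) at the fold cut-off that was called. Without h4.v KO replicate 2 or without WT replicate 2, 1 of the DREB genes was called in h4.v KO, and without WT salt replicate 1, 1 was called with salt.

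**Figure D5:**
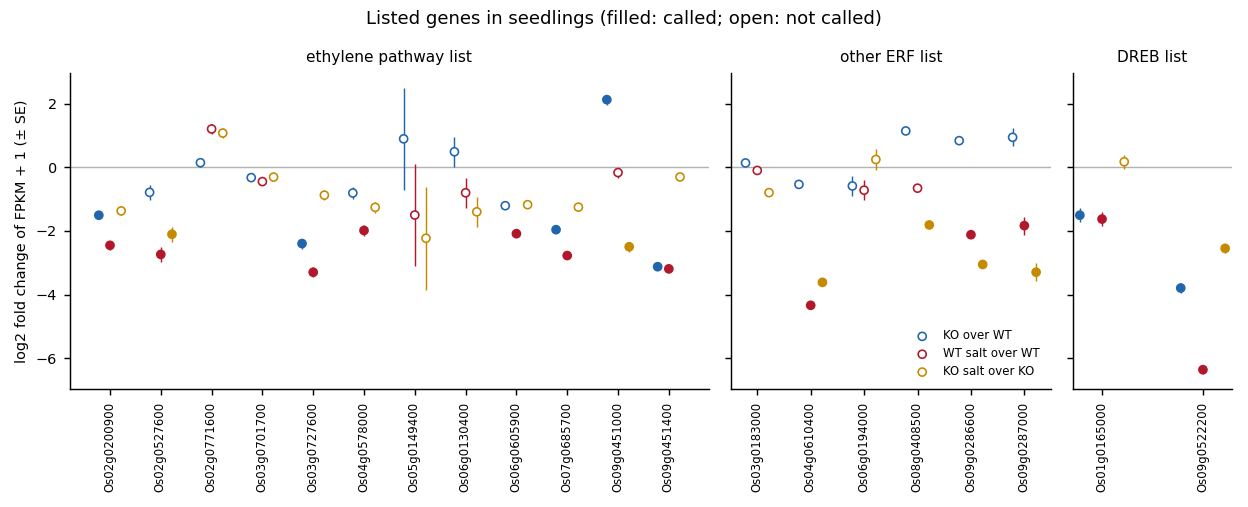
Log2 fold changes of FPKM + 1 (± SE from limma) of the listed ethylene pathway, further ERF and DREB genes tested in seedlings, for h4.v KO over WT, WT salt over WT and h4.v KO salt over h4.v KO, with 2 libraries per group. Filled points were called; Os09g0522200 has the lowest value, -6.36 in WT salt over WT.

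Few chromosomal neighbours of the ERF genes could be tested. Of the 16 genes next to them on either side, 7 were tested in seedlings and 5 in leaves. Limma called 0 in each of the 8 comparisons, with 1 to 4 at an unadjusted p under 0.05. Of all genes tested, 0.452% to 11.4% were called in these comparisons, so 0 among so few genes says nothing particular about the neighbours. Next to Os08g0474000, Os08g0473900 was at 0 and 2.09 FPKM in h4.v KO seedlings, against 5.65 and 5.09 FPKM in WT seedlings, and was not tested, because it shares a locus with another gene. It and the next gene are named after their values were seen. Next to Os01g0752500, Os01g0752400 was at 14.6 and 16.7 FPKM in h4.v KO seedlings, against 8.48 and 8.85 FPKM in WT seedlings.

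The gene most like each ERF gene over the 16 libraries was found by Pearson's r of log2(FPKM + 1) among the genes tested in both tissues that have an identifier. These libraries fall into seedlings and leaves, which sets much of r, so r within each tissue (8 libraries) is given beside it and no p. For Os01g0797600 it was Os05g0148700, with r = 0.99 in all libraries, 0.99 in seedlings and 0.71 in leaves. For Os08g0474000 it was Os11g0163800, with 0.98 in all and 0.99 in seedlings. For Os02g0654700 it was Os05g0408200, with 0.97 in all, 0.99 in seedlings and 0.96 in leaves. For Os01g0752500 it was Os01g0142500, with 0.96 in all, 0.96 in seedlings and 0.93 in leaves. For Os09g0434500 it was Os08g0205400, with 0.97 in all, 0.59 in seedlings and 0.95 in leaves. For Os02g0782700 it was Os09g0394900, with 0.98 in all, 0.90 in seedlings and 0.51 in leaves. For the sparsely measured Os03g0860100 and Os04g0546800 the highest r was 0.95 (Os03g0264000) and 0.79 (Os07g0172200).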

How the data were processed

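RNA was prepared as a directional poly(A) library and sequenced in pairs, with 2 libraries for each of 8 groups. The authors used Trimmomatic for trimming, HISAT2 for mapping to IRGSP1.0 and Cufflinks 2.2.1 for abundance, library by library. The deposited values are FPKM with Cufflinks' interval, 1 row per annotated or assembled locus, and neither read counts nor strand. Loci of different libraries differ in their ends, so gene values were built again from them. Genes were 30385 spans of at least 200 bp, 27589 with a gene identifier and the others listed with the same ends in all 16 libraries. Another 2272 spans lying at least 50% in a longer one were left out. BEDTools 2.31.1 was used for overlaps. The FPKM of each locus that lay at least 50% in a gene was weighted by the share of the gene it covered and summed. Genes under a locus shared with another gene were left out of the tests, the 8 members excepted (of these, Os04g0546800 had such loci). Relative depth was taken from the width of the interval, read as 2 SD on each side, and absolute depth is unknown. It covers counting error only.

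Values were compared as log2(FPKM + 1) in limma 3.58.1 (R 4.3.3), with 1 fit per tissue over its 8 libraries and no block, where the mean reached 1 FPKM, and p-values were adjusted over all of them by Benjamini and Hochberg. Fold changes on this scale understate those of low genes. The code was tested on simulated data. The alternatives were a pseudocount of 0.1, no filter, a mean of at least 5 FPKM, median-of-ratios scaling, unweighted sums, 80% of a locus in the gene, genes under shared loci kept, 1 fit over 16 libraries, a replicate block, a fold cut-off of 1, unadjusted p, and leaving out each library. A rescaling to loci of at least 300 bp and the genes flanking the members were added after seeing the data. The members and lists were chosen with earlier results of these data known. All 8 members were to be named, with every called gene of the ethylene list, up to 2 called genes at either end of the other AP2/ERF genes, and the most similar gene of each member. Lists were written from general knowledge, because the reference table held no gene descriptions for these identifiers. No sequences are printed, since none were given for these genes.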

Additional observations from a re-analysis of the deposited data

Results flagged for a closer look

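The effect of salt differed between h4.v KO and WT seedlings for 8 of the ERF and listed genes in limma's interaction term. A Benjamini-Hochberg adjusted p under 0.05 and the fold cut-off were required. Of all 13936 genes tested, 946 (6.79%) were called for this term. The salt effect in h4.v KO minus that in WT, on the log2(FPKM + 1) scale, was 5.33 for Os08g0474000, the ERF gene of the report, which was listed at 0 with salt in both genotypes. It was 3.81 for the DREB gene Os09g0522200, at under 0.3 FPKM with salt in both genotypes, and 1.80 for Os01g0165000, the other DREB gene tested. Of the ethylene list it was 2.89 for Os09g0451400, 2.42 for Os03g0727600 and 1.52 for Os07g0685700, and it was -2.33 for Os09g0451000, the gene of that list that was higher in h4.v KO without salt. Os03g0727600 and Os09g0451000 were at under 0.5 FPKM with salt in both genotypes, so these values largely restate their differences without salt, -2.40 and 2.13. Without salt, h4.v KO differed from WT by -3.79 for Os09g0522200, -3.12 for Os09g0451400, -1.96 for Os07g0685700 and -1.505 for Os01g0165000. With salt these differences were 0.02, -0.24, -0.44 and 0.30, none of them called. The interaction values of these genes thus also largely restate the differences without salt. Of the salt list it was -1.86 for Os05g0542500, which was higher with salt in both genotypes.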

How the results depend on the processing

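Of the 160 counts of called ERF genes under other settings, 147 lay within 1.5 times the reported ones, as did 550 of 580 counts of listed genes. Of 930 ERF fold changes, 828 moved by less than the gene's own spread between libraries, but many of them could not move. No filter, shared loci kept, 1 fit over 16 libraries and a replicate block leave group means as they are (53 unmoved each). So do a mean of at least 5 FPKM (42 unmoved) and leaving out a library of a group not compared. The 828 are therefore no measure of how stable the fold changes are. Requiring 80% of a locus to lie in the gene reversed Os08g0474000, to 2.87 in h4.v KO against WT, 0.00 in WT salt against WT and -2.87 for the interaction. It also gave 1 ERF gene in WT salt in place of 3. For listed genes it gave 3 ethylene genes (of 5) and 1 DREB gene (of 2) in h4.v KO, 1 DREB gene (of 2) and 1 salt gene (of 3) in WT salt, 0 DREB genes (of 1) in h4.v KO salt and 1 (of 2) for the interaction. The cause of the other changes below was not tested.

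A fold cut-off of 1 gave 2 ERF genes in h4.v KO (reported 1) and 2 for the interaction (1), 1 further ERF gene (0) and 2 salt genes (0) in h4.v KO, 7 ethylene genes (2) in h4.v KO salt and 2 further ERF genes (0) for the interaction. It called 1634 genes in h4.v KO (808), 2957 in WT salt (1586), 2426 in h4.v KO salt against h4.v KO (1174), 124 between the salt groups (63), 1897 for the interaction (946), 1426 in OE-H4 (760) and 546 in OE-H4.V (350). A mean of at least 5 FPKM gave 3 ethylene genes (5) in h4.v KO, 1 (2) in h4.v KO salt and 2 (4) for the interaction, 1 ERF gene (2) in OE-H4, and 33 genes between the salt groups, 203 in OE-H4.Vs (398), 440 in OE-H4 and 181 in OE-H4.V. Between the salt groups, keeping genes under shared loci called 111 genes and an unadjusted p 102; keeping them also gave 1 DREB gene (0) in OE-H4. Median-of-ratios scaling gave 1 ERF gene (2) in OE-H4 and 1 salt gene (0) in h4.v KO. Unweighted sums gave 1 DREB gene (2) in each of h4.v KO, WT salt and the interaction, 1 further ERF gene (0) for the interaction and 1 ERF gene (0) in OE-H4.Vs. A pseudocount of 0.1 gave 1 salt gene (0) in h4.v KO and 4 ethylene genes (2) in h4.v KO salt. Rescaling to loci of at least 300 bp, chosen after seeing the data, gave 1 DREB gene (2) in h4.v KO and 1 ERF gene (2) in OE-H4.

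Leaving out 1 library at a time gave 1 to 2 ERF genes in h4.v KO, 1 to 2 for the interaction and 0 to 3 in OE-H4. It gave 3 to 5 ethylene genes, 1 to 2 DREB genes and 0 to 1 salt genes in h4.v KO, 1 to 2 DREB genes in WT salt, 1 to 3 ethylene genes in h4.v KO salt, and 0 to 1 further ERF genes and 1 to 2 salt genes for the interaction. All genes called ranged from 59 to 127 between the salt groups, from 506 to 810 in OE-H4 (506 without WT leaf replicate 1) and from 258 to 572 in OE-H4.Vs (258 without WT leaf replicate 1). Where a group kept 1 library, it was assumed to vary like the other groups. Counts that stayed within 1.5 times the reported ones are not listed here, among them those of ERF genes with salt, which also varied. In WT salt against WT, Os01g0752500 came to 1.53 without WT seedling replicate 2, past the fold cut-off and upward. In h4.v KO salt against h4.v KO, Os04g0546800 came to -3.93 without h4.v KO seedling replicate 1.

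Replicate numbers did not pair the libraries: deviations of same-numbered libraries correlated between -0.016 and 0.02 in seedlings and between -0.081 and 0.109 in leaves. With the replicate number as a block, 3 ERF genes were called in OE-H4, the other counts of ERF genes stayed as reported, and 806 genes were called in h4.v KO and 760 in OE-H4. With 2 libraries per group, few fragments limit Os01g0752500 and Os02g0654700 in leaves and Os03g0860100 in seedlings, and locus ends limit Os08g0474000, Os02g0654700, Os04g0546800 and Os01g0752500.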
